A study of Mus musculus with 30 samples.

Results

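The step from 8 to 12 days post partum (dpp) in germ cells of male mice without Prdm9 was followed in 10 of the 30 polyadenylated RNA libraries of a study of mouse spermatocytes. The 5 libraries of 8 dpp and the 5 of 12 dpp each came from 1 male of genotype Prdm9-/- on C57BL/6J with under 10% 129S1/SvImJ. The genotype labels name no allele beyond this. Germ cells were enriched by digesting tubules with Liberase and washing interstitial cells away, and no sort or marker gate is named. Beside them stand 10 non-mutant males of the same strain and ages: 3 wild-type and 2 Prdm9 heterozygous animals at 8 dpp, and 1 wild-type and 4 heterozygous animals at 12 dpp. A number in each column name of the file header was read as the litter, which the column names themselves do not spell out. By this reading each Prdm9-/- animal had a non-mutant littermate among these, and 8 dpp replicates 2 and 3 came from 1 litter. Of 65534 rows of genes and loci in the deposited table, 17599 were over 1 TPM in at least 5 of the 10 Prdm9-/- libraries and were tested. TPM gives a transcript's share of all transcripts of a library, scaled to a fixed total, so it compares levels between genes per length and keeps no read depth.

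Male germ cells of the first wave reach meiosis in near synchrony. Spermatogonia become KIT-positive under retinoic acid, divide, and as preleptotene cells express STRA8 and its partner MEIOSIN, which switch on the meiotic programme. In leptotene and zygotene, SPO11 cuts chromosomes laid out on an axis of SYCP2, SYCP3, HORMAD1 and meiotic cohesins, recombinases such as DMC1 search for the homologue, and SYCP1 joins the axes. PRDM9 is a histone methyltransferase of this window that marks the places where SPO11 cuts. In its absence breaks form elsewhere, at promoters and other open chromatin, and spermatocytes arrest before the end of pachytene.

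Values are given below in the order of replicates 1 to 5. Differences are on the scale of log2(TPM + 1), positive where 12 dpp is higher, with their standard error (SE). A row is called where limma's adjusted p (Benjamini-Hochberg over all 17599 rows) is under 0.05, and only called rows are said to rise or fall. Groups do not overlap where every library of one age is above every library of the other.

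Prdm9 (ENSMUSG00000051977, chromosome 17, 15543079 to 15564354 of GRCm38) comes first as the check of the labels. It had 7.38, 6.97, 8.98, 4.77 and 8.03 TPM at 8 dpp and 7.03, 6.34, 6.83, 8.16 and 19.2 TPM at 12 dpp. The library labelled 12 dpp replicate 5, from litter 13, stood above the other 9, whose ranges overlapped between the ages. The difference between ages was 0.26 (SE 0.26, adjusted p = 0.5) and was not called, and without that library it was -0.005. In non-mutants Prdm9 lay between 1.82 and 6.10 TPM at 8 dpp and between 9.16 and 23.3 TPM at 12 dpp. A transcript was thus present in every Prdm9-/- library, and which part of it reads cover cannot be told from these values. In this gene the library labelled 12 dpp replicate 5 lay within the non-mutant range of its age while the other 4 lay under it, so counts of each list are also given without it where they change.

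Libraries of one age correlated at 0.955 to 0.985 (8 dpp) and at 0.968 to 0.984 (12 dpp), against 0.921 to 0.970 between ages, over all tested rows. The first principal component held 44.4% of the variance and separated the ages. On it 8 dpp replicate 1 (-8.77) lay nearest to 12 dpp and 8 dpp replicate 4 (-56.1) farthest, with the 12 dpp libraries between 22.5 and 38.9. Germ cell genes followed the same order: the piRNA pathway list summed to 1422 TPM in 8 dpp replicate 1 and 584 TPM in replicate 4, against 776 to 878 TPM in the other 8 dpp libraries. At 12 dpp, replicate 2 was the lowest of its age in most meiotic lists. The library numbers of all 8 dpp samples come before those of 12 dpp, so age and library order cannot be told apart. The germ cell genes Ddx4 (67.1 to 161 TPM at 8 dpp and 123 to 151 TPM at 12 dpp) and Dazl (129.6 to 338 TPM at 8 dpp and 295 to 386 TPM at 12 dpp) were abundant in every library, and so were Sertoli cell genes, as given below.

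**Figure D1:**
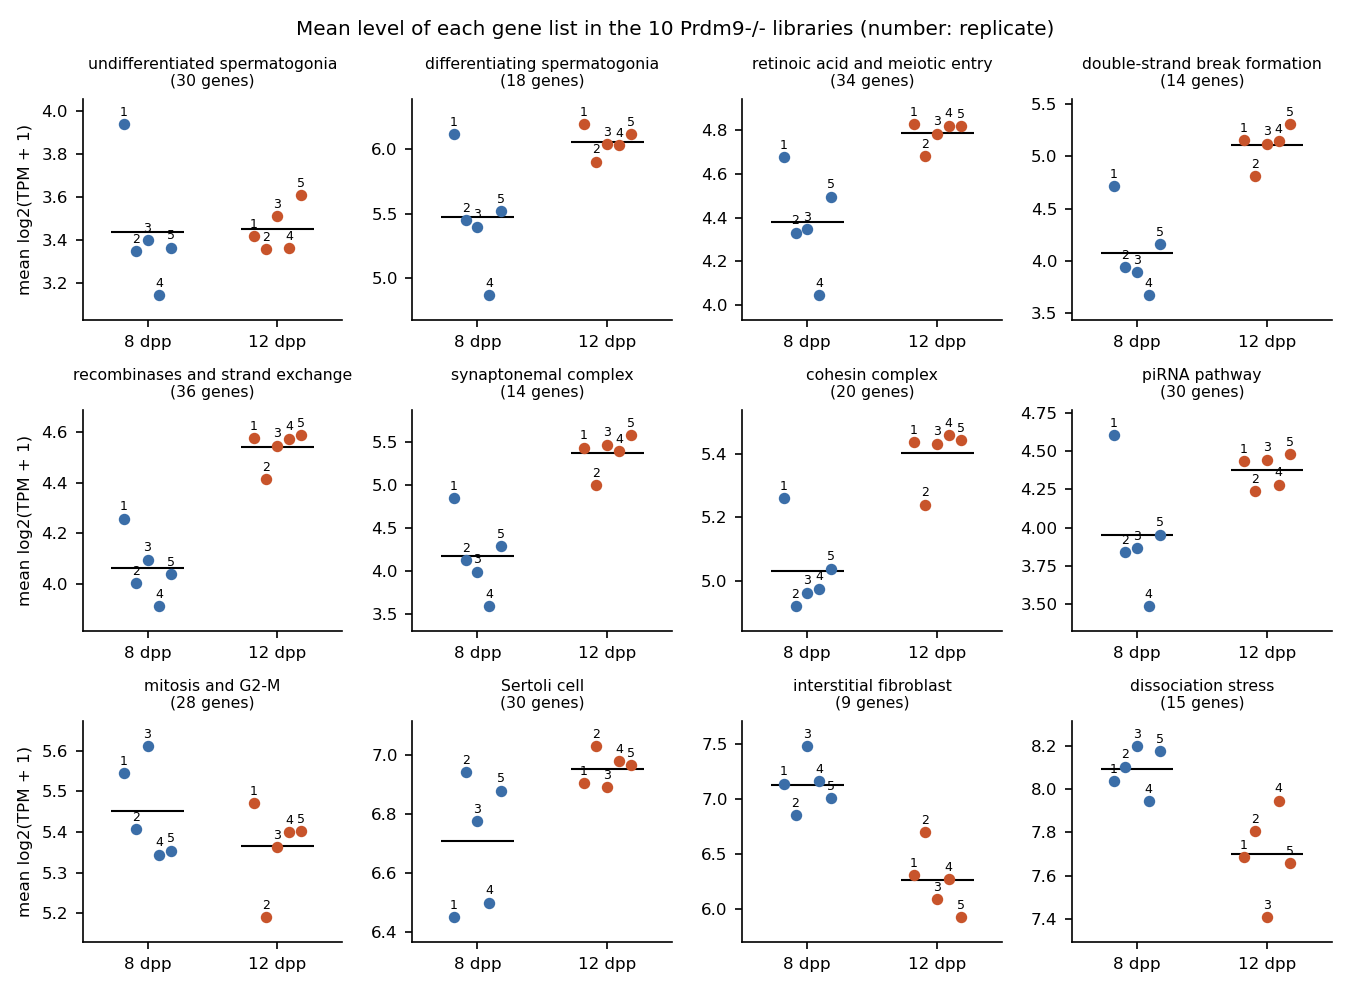
Mean level of 12 gene lists in each Prdm9-/- library, as mean log2(TPM + 1) over the members, at 8 and 12 dpp; points carry the replicate number and lines mark the mean of the 5 libraries. The synaptonemal complex and double-strand break lists are higher in every 12 dpp library than in any 8 dpp library, while 8 dpp replicate 1 lies highest of its age in the germ cell lists.

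Of the 17599 rows, 4580 were called (26%), 2582 of them higher at 12 dpp (14.7%) and 1998 lower (11.4%). The groups did not overlap in 1743 rows that were higher (9.90%) and 1414 that were lower (8.03%). Non-overlap was common among called rows: it held in 1391 to 1743 of the 2582 called higher and in 1172 to 1414 of the 1998 called lower. The lower end of each range counts only named genes of at least 1 TPM on average. The upper end counts all rows without overlap, called or not. The counts of each list below are to be read beside these shares. A change of more than 1 on the log2 scale was called in 423 rows that rose (2.40%) and 381 that fell (2.16%). The median over all tested rows was 0.056. Rows that rose went from 14.02% to 20.25% of the TPM total and rows that fell from 27.54% to 19.01%. Without 12 dpp replicate 5 the number called was 3351. With libraries scaled by the median of their ratios the call count stayed near the same, but 2131 rose and 2406 fell.

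The 15 genes that rose most, among called genes of at least 1 TPM whose groups did not overlap, included genes of Sertoli cells and of germ cells. Rhox5 (chromosome X, 37804842 to 37808876), an X-linked homeobox gene of Sertoli cells under androgen control, rose most. It had 9.79, 5.46, 3.28, 1.55 and 6.66 TPM at 8 dpp and 102, 66.95, 106, 58.5 and 107 TPM at 12 dpp. All 5 libraries of 12 dpp lay several times above the highest of 8 dpp, and the difference was 3.93 (SE 0.33, adjusted p = 4.34e-05). Tsx, an X-linked gene also expressed in Sertoli cells, rose by 3.12, with 0.91 to 4.15 TPM at 8 dpp and 14.3 to 47.9 TPM at 12 dpp. Nxf3, an X-linked relative of the messenger RNA export factors, rose by 3.63, with 6.22 to 20.9 TPM at 8 dpp and 81.6 to 215 TPM at 12 dpp. Pcsk1n, also on the X, which encodes the prohormone convertase inhibitor proSAAS, rose by 3.83. Gja6, an X-linked connexin gene, rose by 3.27, with 0.20 to 1.87 TPM at 8 dpp and 8.21 to 23.9 TPM at 12 dpp. It was over 1 TPM at 8 dpp in replicate 1 alone, so it passed the filter mainly through 12 dpp.

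Germ cell genes were among the same 15. Prss50, a testis-specific serine protease relative, had 35.7, 9.89, 5.83, 1.69 and 11.7 TPM at 8 dpp and 123, 46.3, 106, 106 and 130.2 TPM at 12 dpp. Its 8 dpp values spread widely, with replicate 1 highest and replicate 4 lowest, yet all were below 12 dpp, and the difference was 3.31 (SE 0.54, adjusted p = 0.000983). Ly6k, a membrane-anchored protein that works with TEX101 on germ cells, rose by 3.13, with 1.96 to 16.99 TPM at 8 dpp and 32.99 to 74.3 TPM at 12 dpp. Meiob, which encodes a single-strand DNA-binding protein of meiotic recombination, had 0.87, 0.16, 0, 1.82 and 0.92 TPM at 8 dpp and 9.49, 4.52, 20.8, 15.2 and 15.8 TPM at 12 dpp. All 8 dpp libraries were under 2 TPM and all 12 dpp libraries above 4 TPM, and the difference was 2.97 (SE 0.37, adjusted p = 0.000219). At 8 dpp only replicate 4 was over 1 TPM, so Meiob passed the filter mainly through 12 dpp. The others of the 15 were Tpbgl (3.73), the ganglioside synthase gene B4galnt1 (3.02), Btnl10 (2.96), the septin gene Sept14 (2.95), the beta-synuclein gene Sncb (2.90), the lysophosphatidic acid receptor gene Lpar3 (2.89) and the defensin gene Defb45 (2.88). Tpbgl was over 1 TPM at 8 dpp in replicate 1 alone, so it passed the filter mainly through 12 dpp.

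The genes that fell most included a steroid enzyme gene, imprinted genes and receptor genes. Hsd17b3 (chromosome 13, 64058266 to 64089230), which makes testosterone from androstenedione, fell most and had 75.4, 201, 189.7, 231 and 144 TPM at 8 dpp and 16.9, 13.9, 16.96, 41.3 and 19.3 TPM at 12 dpp. Every 12 dpp library was below every 8 dpp library, and the difference was -2.91 (SE 0.31, adjusted p = 0.00012). H19, an imprinted RNA of fetal tissues, had the smallest adjusted p of all rows. It had 378, 366, 383, 252 and 321 TPM at 8 dpp and 49.5, 64.7, 69.6, 62.7 and 67.6 TPM at 12 dpp. The ages were far apart, and the difference was -2.41 (SE 0.12, adjusted p = 1.80e-06). Nnat, another imprinted gene, fell (-2.34), with 36.9 to 70.5 TPM at 8 dpp and 7.53 to 14.5 TPM at 12 dpp. The prostaglandin D synthase gene Ptgds (-2.27), the thrombin receptor gene F2r (-2.33), the angiotensin receptor gene Agtr2 (-2.17), the tubulin gene Tubb2b (-2.37), the galectin gene Lgals7 (-2.73) and the growth factor gene Gdf15 (-2.25) fell as well. So did the ETS factor gene Elf3 (-2.75), Cbln4 (-2.54), the protease gene Adamts16 (-2.48), the aquaporin gene Aqp12 (-2.40) and Zg16 (-2.66), which was listed at 0 in 4 of the 5 libraries of 12 dpp. Of these, Cbln4, Adamts16 and Zg16 were over 1 TPM at 8 dpp alone, so they passed the filter only through the age where they were high. Aqp12 was over 1 TPM at 12 dpp in replicate 4 alone, so it passed mainly through 8 dpp.

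**Figure D2:**
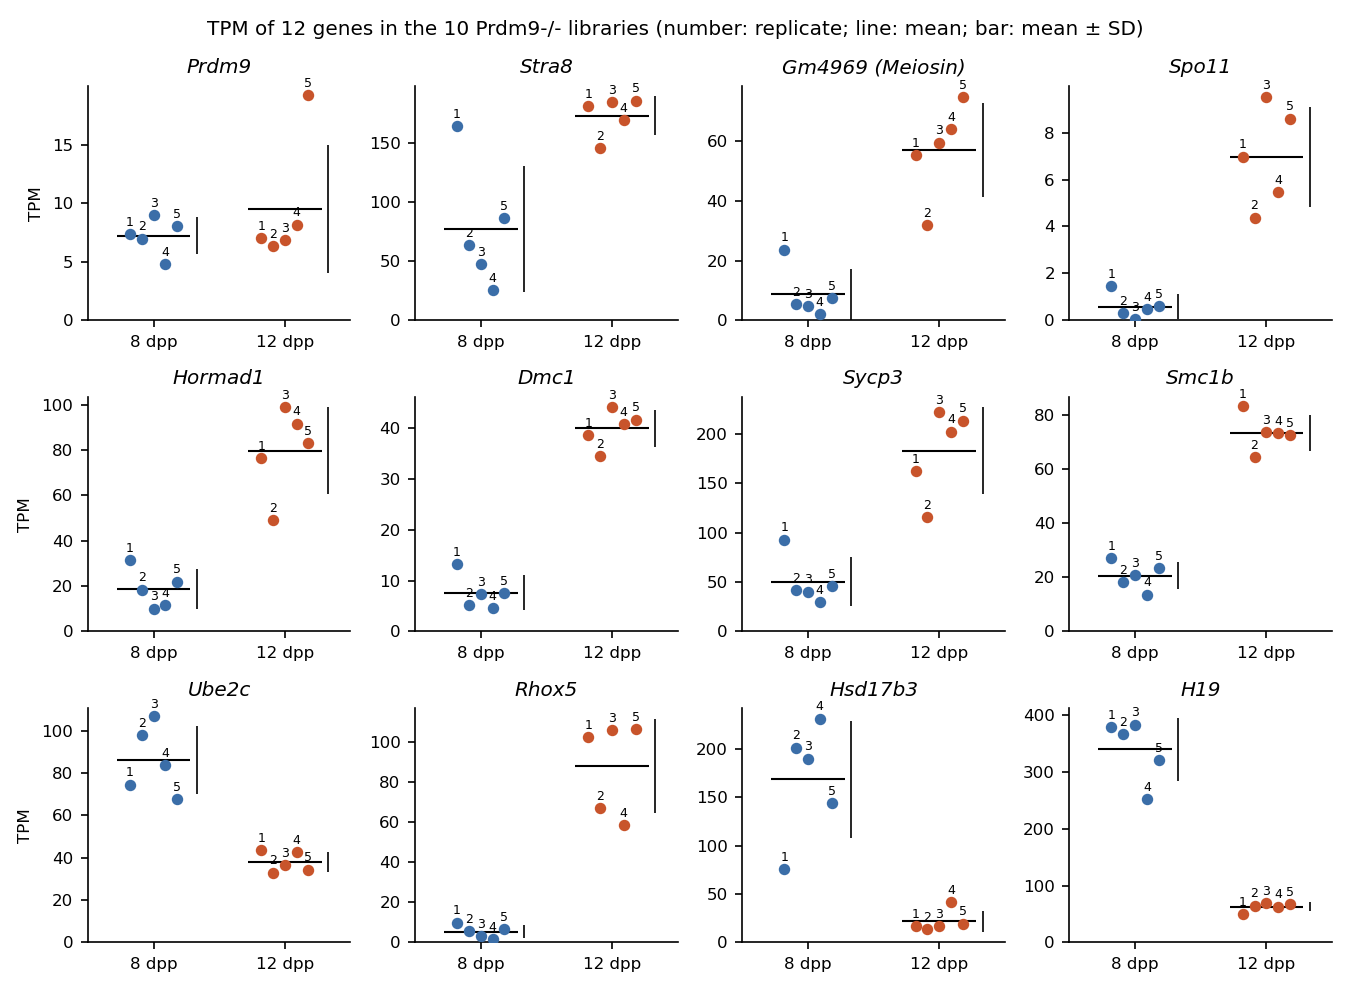
TPM of 12 genes in each Prdm9-/- library at 8 and 12 dpp; points carry the replicate number, horizontal lines mark the mean and vertical bars the mean plus and minus 1 SD of 5 libraries. Prdm9 overlaps between ages with 1 high library at 12 dpp (19.2 TPM), Spo11, Dmc1, Hormad1, Smc1b and Rhox5 lie higher in every 12 dpp library, and Ube2c, Hsd17b3 and H19 lie lower.

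The genes of undifferentiated spermatogonia, the stem and progenitor cells, showed little change. Of 27 tested, 1 rose and 3 fell, against 14.7% and 11.4% of all rows. The median of 0.022 turned to -0.018 with median-ratio scaling and to -0.012 without 12 dpp replicate 5. Zbtb16 (0.080), Gfra1 (0.30), Id4 (-0.048) and Sall4 (0.47) were not called. Shisa6 had 12.4, 17.3, 16.02, 17.6 and 14.1 TPM at 8 dpp and 5.69, 8.96, 9.73, 7.61 and 4.92 TPM at 12 dpp. It fell by 1.001 (SE 0.18, adjusted p = 0.00158) with no overlap. Etv5 (-0.45), a target of GDNF signalling in stem cells, and the laminin receptor gene Itga6 (-0.35) fell too. Taf4b, a TFIID subunit gene needed to keep germ cells, was the 1 that rose (0.75). Without 8 dpp replicate 1, the library highest in this list, 4 rose.

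Genes of differentiating spermatogonia moved more: 10 of 18 rose and 3 fell, with a median of 0.60 (8 and 3 without 12 dpp replicate 5), but in only 1 of the 10 did the ages not overlap. Those with the smallest adjusted p were Prss50, given above, and the X-linked homeobox gene Rhox13 (1.32, SE 0.27, adjusted p = 0.00385), followed by Lin28b (0.88), Dmrtb1 (1.004), Ccnd1 (0.74) and Stra8. Rhox13 had 32.9, 19.2, 17.7, 9.77 and 16.1 TPM at 8 dpp and 52.3, 26.5, 52.1, 55.4 and 51.4 TPM at 12 dpp. The ages overlapped there, since 8 dpp replicate 1 was above 12 dpp replicate 2. The 3 that fell were the D-type cyclin genes Ccnd2 (-0.99, SE 0.14, adjusted p = 0.000388) and Ccnd3 (-0.77) and the phosphatase gene Ptpn11 (-0.32). Ccnd2, which drives spermatogonial division, had 108, 129, 162, 155 and 116 TPM at 8 dpp and 64.2, 65.4, 52, 82.4 and 70.9 TPM at 12 dpp, with all 12 dpp libraries below all of 8 dpp. In a bulk library, fewer cells of a type and less RNA per cell cannot be told apart, here and in all that follows.

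The retinoic acid and meiotic entry list rose in part: 11 of 30 tested members were higher and 3 lower at 12 dpp, with a median of 0.24 (9 and 2 without 12 dpp replicate 5). In 7 of the 11 the ages did not overlap, against 1391 to 1743 of the 2582 rows called higher among all rows. Stra8 (chromosome 6, 34920163 to 34939344) is the retinoic acid target that opens meiosis. It had 164, 63.4, 47.8, 25.7 and 86.6 TPM at 8 dpp and 181, 146, 184, 169 and 186 TPM at 12 dpp. At 8 dpp all but replicate 1 lay below 12 dpp, and replicate 1 lay among the 12 dpp values. The difference was 1.40 (SE 0.36, adjusted p = 0.0124). With no filter on low rows limma did not call it (adjusted p = 0.0558). Gm4969, the mouse gene for MEIOSIN, had 23.7, 5.46, 4.86, 1.98 and 7.45 TPM at 8 dpp and 55.2, 31.8, 59.3, 63.9 and 74.5 TPM at 12 dpp. Here the ages did not overlap, and the difference was 2.90 (SE 0.43, adjusted p = 0.000628). Meioc and Ythdc2 encode partners in an RNA-binding complex that carries cells from mitosis into meiosis. Meioc had 25.8, 6.81, 6.74, 5.25 and 11.7 TPM at 8 dpp and 52.1, 29.5, 63.5, 59.6 and 72.7 TPM at 12 dpp and rose by 2.37 (SE 0.36, adjusted p = 0.000639). Ythdc2 rose by 0.87, with 8.13 to 13.5 TPM at 8 dpp and 15.9 to 22.1 TPM at 12 dpp.

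Enzymes and receptors of retinoic acid did not move as one. Aldh1a2, which makes retinoic acid in spermatocytes, had 21.2, 10.4, 8.75, 6.69 and 13.4 TPM at 8 dpp and 54.9, 30.7, 66.6, 48.8 and 64.8 TPM at 12 dpp. The ages did not overlap and it rose by 2.10 (SE 0.27, adjusted p = 0.000272). Aldh1a1, the enzyme of Sertoli cells, was far more abundant, at 935 to 1475 TPM at 8 dpp and 786 to 991 TPM at 12 dpp, and fell (-0.56). Rxrb rose (0.44). The receptor genes Rara (0.23) and Rarg (0.26) and the degrading enzymes Cyp26a1 (0.48) and Cyp26b1 (0.27) were not called. Stra6, the retinol uptake receptor gene (-0.54), was called lower, but not without 8 dpp replicate 2, 3 or 5 or 12 dpp replicate 1, 2, 3 or 5 (adjusted p up to 0.0987). E2f6, a repressor that holds meiotic genes silent in other cells, fell (-0.39), while its complex partners Mga (0.14) and Pcgf6 (0.067) were not called.

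The promoters of 7 genes that rose are printed as examples: both entry factors, 4 genes of the axis and synaptonemal complex, and the recombinase Dmc1. They were picked by name. The 4 all hold an E box, against 6 of the 11 synaptonemal complex genes that rose, so they do not stand for that list. Each is the 250 bases before the RefSeq start (GRCm38.p6), 5′ to 3′ on the strand of the gene. Capitals mark, on either strand, CNCCTCAG (the motif bound by STRA8), TCCCGC (E2F family), CACGTG (E box) or TGACGTCA (cyclic AMP response element). No matches overlap, and 2 E2F matches side by side in Gm4969 run together.
Stra8 (chr6:34920698-34920947, plus strand): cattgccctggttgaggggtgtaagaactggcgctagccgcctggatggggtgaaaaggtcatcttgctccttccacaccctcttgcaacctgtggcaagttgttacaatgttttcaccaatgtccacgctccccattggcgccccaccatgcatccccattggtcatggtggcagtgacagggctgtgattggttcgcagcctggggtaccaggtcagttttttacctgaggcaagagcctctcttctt
Gm4969 (chr7:19118345-19118594, minus strand): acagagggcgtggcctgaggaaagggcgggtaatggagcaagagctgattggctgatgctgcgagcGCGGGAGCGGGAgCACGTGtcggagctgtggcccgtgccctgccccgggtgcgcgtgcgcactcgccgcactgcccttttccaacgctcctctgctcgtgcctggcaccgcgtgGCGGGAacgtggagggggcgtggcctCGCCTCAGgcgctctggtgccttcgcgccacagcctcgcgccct
Hormad1 (chr3:95559427-95559676, plus strand): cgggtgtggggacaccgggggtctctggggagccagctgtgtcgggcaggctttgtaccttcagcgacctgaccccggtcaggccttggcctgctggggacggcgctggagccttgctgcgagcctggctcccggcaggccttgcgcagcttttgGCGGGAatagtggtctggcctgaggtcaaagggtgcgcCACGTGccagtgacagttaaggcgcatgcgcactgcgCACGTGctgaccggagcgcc
Sycp3 (chr10:88459337-88459586, plus strand): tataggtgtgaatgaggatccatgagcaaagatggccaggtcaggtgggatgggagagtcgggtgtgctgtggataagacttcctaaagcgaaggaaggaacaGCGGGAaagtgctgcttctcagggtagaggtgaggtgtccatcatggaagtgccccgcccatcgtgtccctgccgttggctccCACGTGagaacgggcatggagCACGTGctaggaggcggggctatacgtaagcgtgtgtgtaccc
Sycp1 (chr3:102936101-102936350, minus strand): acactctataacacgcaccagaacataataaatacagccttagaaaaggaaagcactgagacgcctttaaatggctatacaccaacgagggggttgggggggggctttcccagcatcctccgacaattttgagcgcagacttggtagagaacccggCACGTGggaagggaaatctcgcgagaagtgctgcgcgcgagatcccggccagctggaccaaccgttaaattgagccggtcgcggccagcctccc
Tex12 (chr9:50561269-50561518, minus strand): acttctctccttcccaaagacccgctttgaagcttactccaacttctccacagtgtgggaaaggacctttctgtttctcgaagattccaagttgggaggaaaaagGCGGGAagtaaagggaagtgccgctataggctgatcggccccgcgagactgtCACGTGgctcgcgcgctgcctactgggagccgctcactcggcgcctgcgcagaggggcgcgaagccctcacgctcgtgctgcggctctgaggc
Dmc1 (chr15:79605110-79605359, minus strand): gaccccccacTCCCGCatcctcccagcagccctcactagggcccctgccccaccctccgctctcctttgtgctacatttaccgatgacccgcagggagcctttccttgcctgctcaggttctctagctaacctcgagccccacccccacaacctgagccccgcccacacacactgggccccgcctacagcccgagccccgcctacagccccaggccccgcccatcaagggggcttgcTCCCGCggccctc

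The Gm4969 window held the first 3 motifs, with the STRA8 motif starting 44 bases before the start, E2F motifs at 184, 178 and 70 and an E box at 171. The E box lay within 100 bases of the start in Sycp1 (94), Sycp3 (64 and 43), Tex12 (93) and Hormad1 (57 and 20). Dmc1 held 2 E2F motifs and no E box. The printed Stra8 window held none of these letters. That window follows the RefSeq start and lies inside the annotated gene span given above, so the bases before the annotated gene start were not searched. The cyclic AMP response element was in none of them, and in 3.25% of tested genes and 1.79% of all promoters. Over the 300 bases from 250 before to 50 after the start, the E box was in 6 of the 11 synaptonemal complex genes that rose (54.5%), against 10.3% of 11059 tested genes with a promoter in the table and 7.15% of all 32851 promoters. The STRA8 motif was in 4 of those 11 (36.4%) and in 3 of the 10 entry genes that rose and had a promoter, against 9.40% of tested genes and 7.94% of all promoters. The E2F motif was in 7 of the same 10, against 36.6% and 20.0%, and in 5 of the 11 (45.5%). Other lists held these letters as often, at shares nearer those of tested genes, or not at all. The E box, for example, was in 15.4% of recombinase and 10% of asynapsis genes that rose. Among genes that rose, the E box was in 5 of 7 piRNA pathway promoters (71.4%) and 6 of 10 of RNA-binding regulators, E2F in 11 of 13 of recombinases (84.6%) and the STRA8 motif in 0 of 7 of double-strand break genes, while 4 of 8 promoters of dissociation genes that fell held the STRA8 motif. Over all genes with a promoter, the E box was in 11.3% of those called higher, 8.85% of those called lower and 10.3% of those not called, the STRA8 motif in 12.3%, 8.04% and 8.95%, and the E2F motif in 37.5%, 37.4% and 36.3%. The table holds promoters for 79.7%, 73.6% and 77.1% of these, and the matches are letters, given as a description with no test, that say nothing of which factor is bound.

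Double-strand break genes rose without exception among those called: 9 of 14 rose, none fell, and the median of 1.01 stood against 0.056 for all rows. In 6 of the 9 the ages did not overlap, against 1391 to 1743 of the 2582 rows called higher among all rows. Spo11 (chromosome 2, 172977700 to 172993576), the enzyme that cuts, had 1.45, 0.31, 0.05, 0.49 and 0.62 TPM at 8 dpp and 6.98, 4.37, 9.51, 5.45 and 8.59 TPM at 12 dpp. All of 12 dpp were above all of 8 dpp, and the difference was 2.35 (SE 0.25, adjusted p = 0.000106). At 8 dpp only replicate 1 was over 1 TPM, so Spo11 passed the filter mainly through 12 dpp. Its place among the 9 is no support. Gm960, which encodes the SPO11 partner TOPOVIBL, rose by 1.67 (SE 0.27, adjusted p = 0.00101), with 0.41 to 3.97 TPM at 8 dpp and 5.72 to 8.52 TPM at 12 dpp. Ccdc36 (Iho1), an axis-bound factor needed for cutting, had 12.3, 4.46, 4.77, 3.05 and 6.22 TPM at 8 dpp and 20.8, 15.97, 17.8, 19.9 and 19.9 TPM at 12 dpp and rose by 1.59. Mei1 rose by 1.57. Rec114 (0.44), which forms one complex with other break factors, and the kinase gene Atm (0.42) were not called.

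PRDM9 works with other chromatin proteins. In a list of Prdm9, such partners and further chromatin genes 6 of 15 rose and none fell (median 0.25), or 4 without 12 dpp replicate 5. Being in the list does not make a gene a partner of PRDM9. Zcwpw1, a reader of the histone marks that PRDM9 writes, had 107, 57.8, 46.9, 42.6 and 66.8 TPM at 8 dpp and 142, 114, 153, 149 and 162 TPM at 12 dpp. The ages did not overlap and it rose by 1.22 (SE 0.20, adjusted p = 0.00115). Hells, a chromatin remodeller that binds PRDM9, rose by 0.52, with 91.3 to 149.8 TPM at 8 dpp and 126 to 179.9 TPM at 12 dpp, so that the ages overlapped. The histone methyltransferase gene Setdb1 (0.40), Morc2a (0.42) and Zcwpw2 (0.54) rose as well, the last with a filter passed only through 12 dpp (0.32 to 0.99 TPM at 8 dpp and 1.19 to 1.40 TPM at 12 dpp). The demethylase gene Kdm5b (0.27) was called higher, but not without 8 dpp replicate 2, 3 or 4 or 12 dpp replicate 1, 2, 4 or 5 (adjusted p up to 0.0781). Cxxc1 (0.11), Ehmt1 (0.082), Ehmt2 (0.18) and Cdyl (0.20), further members of the list, were not called.

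Of 36 genes of recombinases and strand exchange, 18 rose and 1 fell, with a median of 0.33. Dmc1 (chromosome 15, 79561497 to 79605109), the meiosis-specific recombinase, had 13.2, 5.19, 7.30, 4.61 and 7.55 TPM at 8 dpp and 38.6, 34.4, 44.1, 40.8 and 41.6 TPM at 12 dpp. Every 12 dpp library was above every 8 dpp library, and the difference was 2.33 (SE 0.21, adjusted p = 5.49e-05). Meiob, given above with the limit of its filter, rose too. Rad51ap2 had 0.38 to 0.75 TPM at 8 dpp and 3.01 to 8.11 TPM at 12 dpp (2.06), so that it passed the filter only through 12 dpp and its place among the 18 is no support. Brca2, which loads recombinases, had 17.4, 9.43, 12.4, 11.8 and 11.7 TPM at 8 dpp and 21.99, 22.6, 24.9, 22.4 and 28.7 TPM at 12 dpp, with no overlap (0.91). Its meiotic partners Hsf2bp (1.39) and 4930432K21Rik (Brme1, 1.05) rose likewise. Mnd1, a cofactor of DMC1, was the 1 called lower (-0.45), but not without 8 dpp replicate 1, 2, 3 or 5 or 12 dpp replicate 1, 2 or 3 (adjusted p up to 0.0994). Its partner Psmc3ip (0.18) was not called. The number that rose was 9, 11 and 11 without 12 dpp replicates 1, 4 and 5 in turn, and 13 with median-ratio scaling.

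Crossover genes rose in 9 of 17 cases and fell in none (median 0.56), with no overlap in 7 of the 9. Among all rows the ages did not overlap in 1391 to 1743 of the 2582 called higher. Hfm1, a helicase of crossover formation, had 6.58, 2.28, 2.05, 1.91 and 3.96 TPM at 8 dpp and 17.98, 13.1, 21.9, 20.4 and 21.02 TPM at 12 dpp and rose by 2.27 (SE 0.25, adjusted p = 0.000132) with no overlap. The MutS pair Msh4 (0.65 to 1.23 TPM at 8 dpp and 1.44 to 4.96 TPM at 12 dpp) and Msh5 (2.61 to 6.67 TPM at 8 dpp and 8.57 to 17.9 TPM at 12 dpp) rose by 1.14 and 1.64. AI481877 (Shoc1, 1.49), the X-linked Tex11 (1.14) and Cntd1 (0.93) rose as well. The ring-finger genes Rnf212 (0.80) and Ccnb1ip1 (0.79), which act on crossovers from pachytene on, and Mlh3 (0.28) were not called. With single libraries left out, 6 to 11 rose, and 7 without 12 dpp replicate 5.

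The synaptonemal complex list had the largest median of the meiotic lists: 11 of 13 rose, none fell and the median was 1.31. In 8 of the 11 the ages did not overlap. Among all rows the ages did not overlap in 1391 to 1743 of the 2582 called higher. Sycp3 of the lateral element had 92.9, 42.02, 40.3, 29.6 and 46.1 TPM at 8 dpp and 162, 116, 222, 202 and 213 TPM at 12 dpp. The highest 8 dpp library, replicate 1, was below the lowest of 12 dpp, replicate 2, and the difference was 1.92 (SE 0.26, adjusted p = 0.000361). Sycp1, the transverse filament that closes the zipper, had 53.7, 27.8, 26.9, 23.1 and 34.8 TPM at 8 dpp and 96.6, 71.3, 121, 109.7 and 110.2 TPM at 12 dpp and rose by 1.62 (SE 0.20, adjusted p = 0.00023). Sycp2 rose by 1.95, and Hormad1, which marks unsynapsed axes, by 2.11 (SE 0.27, adjusted p = 0.000282), with 10.0 to 31.5 TPM at 8 dpp and 49.1 to 98.97 TPM at 12 dpp. Central element genes rose too: 4930447C04Rik (Six6os1, 1.16, SE 0.13, adjusted p = 0.000132) and Tex12 (1.31, SE 0.20, adjusted p = 0.000618). Trip13 (0.28), which strips HORMAD1 from synapsed axes, was not called. Between 11 and 12 rose whichever library was left out.

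Of 19 cohesin genes tested, 7 rose and 1 was called lower (median 0.22). Smc1b, of meiotic cohesin, had 26.9, 18.3, 20.8, 13.5 and 23.4 TPM at 8 dpp and 83.03, 64.4, 73.6, 73.1 and 72.5 TPM at 12 dpp. The ages did not overlap, and the difference was 1.81 (SE 0.15, adjusted p = 4.34e-05). Rad21l (1.83, SE 0.29, adjusted p = 0.000779), Rec8 (1.45, SE 0.25, adjusted p = 0.0015) and Stag3 (1.03) rose, and so did the acetyltransferase genes Esco1 (0.40) and Esco2 (0.69). Of the subunits that mitotic cohesin uses, Smc1a was called lower (-0.27), a call lost without 8 dpp replicate 3 or 12 dpp replicate 1, 2, 3 or 5 (adjusted p up to 0.0741), and Rad21 (-0.14), Smc3 (0.21), which meiotic cohesin uses too, Stag1 (0.17) and Stag2 (-0.25) were not called. Without 8 dpp replicate 1 or 4, 2 of the list fell.

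Genes that tie telomeres to the nuclear envelope rose in 8 of 16 cases and fell in 2 (median 0.23), or 7 and 2 without 12 dpp replicate 5. Spdya, an activator of CDK2 at telomeres, had 2.60, 1.49, 1.39, 1.52 and 2.64 TPM at 8 dpp and 11.2, 6.58, 13.02, 10.7 and 11.9 TPM at 12 dpp and rose by 1.99 (SE 0.20, adjusted p = 8.25e-05) with no overlap. Terb1 (2.11, SE 0.28, adjusted p = 0.000291), Terb2 (1.47) and Majin (1.70), which form the attachment complex, rose, as did the linker genes Ccdc155 (Kash5, 1.48) and Sun2 (0.91). Sun1, their other linker, was not called (0.19). The lamin gene Lmnb1 fell (-0.62, SE 0.11, adjusted p = 0.00185), and Lmna (-0.75) was called lower, but not without 8 dpp replicate 4 or 12 dpp replicate 2 (adjusted p up to 0.0608).

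Asynapsis and ATR signalling genes rose in 10 of 24 cases and fell in 2 (median 0.24), or 9 and 1 without 12 dpp replicate 5. Atr, the kinase that marks unsynapsed chromatin, had 38.5, 22.9, 25.2, 25.5 and 31.1 TPM at 8 dpp and 67.1, 57.1, 76.8, 68.9 and 77.2 TPM at 12 dpp. All 12 dpp libraries were above all of 8 dpp, and the difference was 1.26 (SE 0.14, adjusted p = 0.00012). Mdc1 (0.70), Hormad2 (1.45), Hus1b (0.97) and the X-linked Scml2 (0.82) rose. H2afx, the histone that ATR phosphorylates, fell (-0.83, SE 0.13, adjusted p = 0.000782), with 71.8, 109, 129, 94.9 and 90.04 TPM at 8 dpp and 55.2, 49.2, 52.4, 56.6 and 57.5 TPM at 12 dpp and no overlap. Fancb (-0.52) was called lower, but not without 8 dpp replicate 3 or 12 dpp replicate 1, 3 or 5 (adjusted p up to 0.0687). Topbp1 (0.17), Brca1 (0.31), Chek1 (0.14) and Chek2 (-0.13) were not called.

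**Figure D3:**
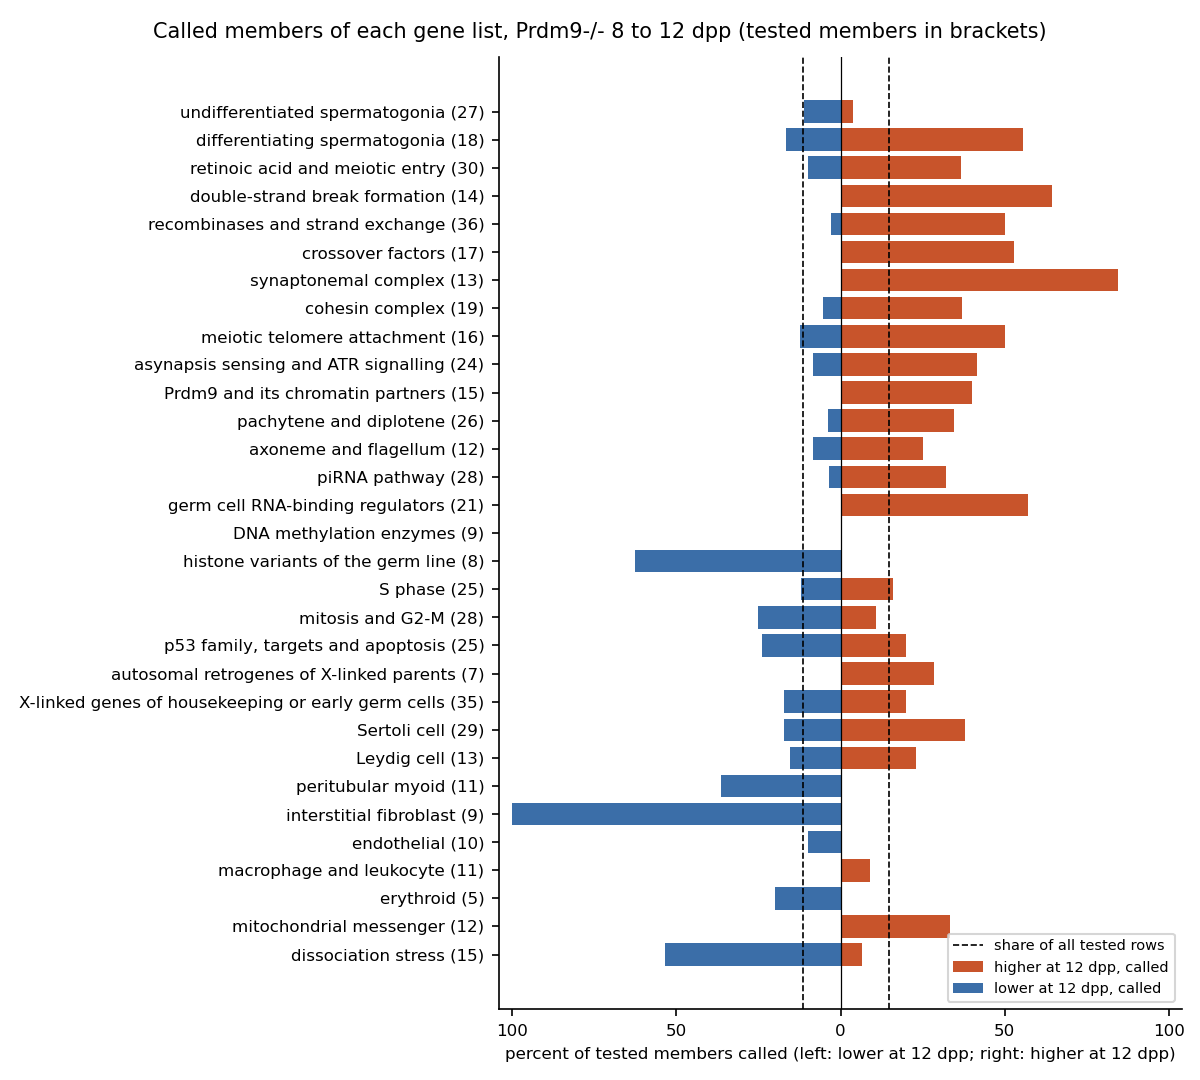
Percent of the tested members of each list called higher (right) or lower (left) at 12 dpp in Prdm9-/- libraries, for lists with at least 5 tested members; dashed lines mark the share of all tested rows, 14.7% higher and 11.4% lower. The synaptonemal complex (11 of 13) reaches farthest to the right and the interstitial fibroblast list (9 of 9) farthest to the left.

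Genes of later stages were partly below the filter. Of 38 pachytene and diplotene genes 26 were tested, 9 rose and 1 fell (median 0.27). Without 12 dpp replicate 5, 6 rose, and without 8 dpp or 12 dpp replicate 1, 2 fell. Tex101, a germ cell surface protein, had 145, 55.5, 44.6, 22.9 and 58.8 TPM at 8 dpp and 353, 157, 344, 332 and 347 TPM at 12 dpp and rose by 2.40 (SE 0.38, adjusted p = 0.000866) with no overlap. Ybx2 (1.46), Brdt (0.92), Meig1 (0.999), Ovol1 (0.70) and the autosomal retrogene Pdha2 (0.51) rose, and Ybx3 fell (-0.39). Ldhc (-0.76), Piwil1 (0.24), Clgn (0.72), Tcfl5 (0.63), Crem (-0.46) and Mybl1 (0.13), which mark or drive pachytene, were not called, and Pgk2, Hist1h1t, Adam3, Ccna1 and Acr were under 1 TPM in all 10 libraries and not tested. Of 20 spermatid genes 3 were tested. Odf2, also a centrosome gene, rose (0.38), and Tnp1 (-0.27) and Tssk1 (0.23) were not called. Of the axoneme list 12 of 33 genes were tested, 3 were called higher and 1 fell, but without 8 dpp replicate 2 or 3 or 12 dpp replicate 3 or 4 only 1 rose, without 12 dpp replicate 5, 2 rose, and without 8 dpp replicate 4, 2 fell. Rsph1, of the radial spoke, had 7.70, 8.96, 7.99, 6.80 and 7.58 TPM at 8 dpp and 24.7, 17.7, 33.7, 23.3 and 24.9 TPM at 12 dpp and rose by 1.53 (SE 0.15, adjusted p = 8.16e-05). Cfap43 fell by 2.04 (SE 0.25, adjusted p = 0.000219), with 57.3 to 88.8 TPM at 8 dpp and 10.1 to 33.03 TPM at 12 dpp.

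The piRNA pathway guards the germ line against transposons through small RNAs made by a cascade of PIWI and Tudor proteins. Of its 28 tested genes 9 rose and 1 was called lower (median 0.47). In none of the 9 were all 12 dpp libraries above all of 8 dpp. Tex15 had 78.2, 22.1, 23.5, 21.8 and 36.99 TPM at 8 dpp and 84.4, 73.3, 89.7, 81.8 and 103 TPM at 12 dpp and rose by 1.40 (SE 0.29, adjusted p = 0.00394), with 8 dpp replicate 1 inside the range of 12 dpp. Rnf17 (0.77), Fkbp6 (0.82) and Tdrkh (0.78) rose. Mov10l1 (0.78, adjusted p up to 0.0709) and Mael (0.56) were not called without 8 dpp replicate 2, 3 or 4 or 12 dpp replicate 1, 3 or 5 (adjusted p up to 0.067). Tdrd3 (-0.31), the 1 called lower, was not without 12 dpp replicate 5 (adjusted p up to 0.0534). Piwil2 (0.47), Piwil4 (0.26) and Tdrd1 (0.44) were not called. The count moved most with 8 dpp replicate 1: without it 20 rose, and without any 1 of 8 dpp replicates 2, 3 and 4 or 12 dpp replicates 1, 3 and 5 only 4 did; with median-ratio scaling it was 6. Of the deposited piRNA precursor loci only 2 were tested, and 1 was called higher, at 0.47 on the log2 scale, and 0 without 12 dpp replicate 5 or with quantile normalization.

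RNA-binding regulators of germ cells rose in 12 of 21 cases and fell in none (median 0.60), or in 10 without 12 dpp replicate 5. Beside Meioc and Ythdc2, Boll had 23.5, 11.9, 10.2, 6.93 and 10.3 TPM at 8 dpp and 29.4, 21.9, 35.1, 34.9 and 28.6 TPM at 12 dpp, with 8 dpp replicate 1 just above 12 dpp replicate 2, and rose by 1.28 (SE 0.25, adjusted p = 0.00266). Cpeb1 (1.39), Lin28b and Adad1 (1.06) rose. Nanos2 (-0.35), which acts earlier in the germ line, was not called. Among 9 DNA methylation enzymes none was called (median 0.049, and -0.011 with median-ratio scaling); Dnmt1 (0.043), Dnmt3a (-0.10), Dnmt3l (0.58) and Tet1 (-0.29) did not pass the test. Without 8 dpp replicate 1, 2 rose and 1 fell. Of 8 tested histone variant genes 5 were lower at 12 dpp. H2afz had 214, 321, 349.6, 368 and 255 TPM at 8 dpp and 164, 178, 196, 176 and 180.4 TPM at 12 dpp and fell by 0.72 (SE 0.13, adjusted p = 0.00195) with no overlap. The calls of H3f3a (-0.22), H3f3b (-0.36) and H1f0 (-0.77) were each lost without 8 dpp replicate 2 or 3 or 12 dpp replicate 1, 3 or 5 (adjusted p up to 0.102), which left 2 of the list. Without 8 dpp replicate 5, 3 fell, and without 8 dpp replicate 1, 1 rose. Reads of H3f3a and H3f3b can be shared with their retrocopies.

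Mitotic genes fell more often than they rose: 7 of 28 were lower, 3 higher, and the median was -0.18 (6 and 3 without 12 dpp replicate 5, and 5 higher without 8 dpp replicate 1). Among all rows 11.4% were called lower and 14.7% higher. Ube2c, which drives exit from mitosis, had 74.5, 97.8, 107, 83.7 and 67.7 TPM at 8 dpp and 43.6, 32.9, 36.4, 42.8 and 34.4 TPM at 12 dpp. The ages did not overlap and it fell by 1.15 (SE 0.13, adjusted p = 0.000132). Cdk1 (-0.91, SE 0.14, adjusted p = 0.000878) and its cyclin gene Ccnb2 (-0.75, SE 0.11, adjusted p = 0.000594), Aurkb (-0.43) and Birc5 (-0.33) fell, and Nusap1 (-0.42) was called lower, but not without 8 dpp replicate 2, 3 or 4 or 12 dpp replicate 1, 2 or 3 (adjusted p up to 0.0806). Ccnb3, the X-linked cyclin of leptotene and zygotene, had 4.30, 1.88, 1.35, 1.61 and 2.48 TPM at 8 dpp and 13.4, 8.02, 20.4, 13.2 and 13.8 TPM at 12 dpp and rose by 2.16 (SE 0.25, adjusted p = 0.00015). The others that rose were Bub1 (0.77) and Cdc25a (0.51). Mki67 (-0.21), Top2a (0.022), Ccnb1 (-0.15) and Plk1 (-0.10) were not called. With median-ratio scaling 10 fell and 3 rose.

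S phase genes were near balance, with 4 of 25 called higher, 3 lower and a median of -0.080. These counts are near the shares of all rows, 14.7% higher and 11.4% lower. Tyms fell by 0.70 (SE 0.10, adjusted p = 0.000646) with no overlap, and Pola1 (-0.43) and Mcm6 (-0.29) fell. Ccne2, which drives premeiotic replication with CDK2, had 23.7, 15.1, 12.2, 16.6 and 15.3 TPM at 8 dpp and 30.02, 20.4, 40.1, 34.2 and 37.6 TPM at 12 dpp and rose by 0.93 (SE 0.19, adjusted p = 0.00426). The other 3 that were higher, Cdc45 (0.48), Rfc4 (0.32) and Prim1 (0.29), were each lost without 8 dpp replicate 2, 4 or 5 or 12 dpp replicate 1, 4 or 5 (adjusted p up to 0.0647, 0.102 and 0.118), which left 1. The last 2 were also lost without 8 dpp or 12 dpp replicate 3. Mcm2 (-0.12), Pcna (-0.17) and Rrm2 (0.21) were not called.

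The p53 and apoptosis list went both ways, with 5 of 25 higher, 6 lower and a median of -0.032 (4 and 4 without 12 dpp replicate 5). Among all rows 14.7% were called higher and 11.4% lower. Sesn2, a stress-response target of p53, rose by 1.003 (SE 0.12, adjusted p = 0.000147), with 36.9 to 51.4 TPM at 8 dpp and 73.1 to 99.7 TPM at 12 dpp. The Y-linked Zfy2 had 1.13, 0.65, 0.64, 0.51 and 0.54 TPM at 8 dpp and 3.43, 1.16, 5.02, 4.13 and 3.26 TPM at 12 dpp, with every 12 dpp library above 8 dpp (1.31, SE 0.25, adjusted p = 0.00228), and Zfy1 rose by 1.06. These zinc-finger factors promote the death of spermatocytes that fail in meiosis. Zfy2 was over 1 TPM at 8 dpp in replicate 1 alone, so it passed the filter mainly through 12 dpp. Bcl2l1 (0.36) rose and Trp53inp1 (0.36) was called higher, though not without 8 dpp replicate 2 or 3 or 12 dpp replicate 1, 2, 3, 4 or 5 (adjusted p up to 0.0676). Bcl2 (-0.73), Phlda3 (-0.68) and Mcl1 (-0.37) fell. Trp53 (-0.27) was called lower, but not without 8 dpp replicate 3 or 12 dpp replicate 2, 4 or 5 (adjusted p up to 0.0689), and Bak1 (-0.56) not without 8 dpp replicate 2, 3 or 5 or 12 dpp replicate 3, 4 or 5 (adjusted p up to 0.105). Cdkn1a (-0.46), Mdm2 (0.060), Bax (0.087) and Bbc3 (-0.52) were not called.

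The X chromosome was higher more often than autosomes. Of 646 X-linked genes 186 rose (28.8%) and 94 fell (14.6%), with a median of 0.13, against 15.8% and 12.7% of 13669 autosomal genes and a median of 0.061. On the Y chromosome 7 of 13 rose and none fell. Autosomes ranged from 13.6% on chromosome 17 to 20.4% on chromosome 5 in the share that rose. In a list of X-linked genes of housekeeping or early germ cells, 7 of 35 rose and 6 fell (median 0.071), or 5 and 3 without 12 dpp replicate 5. Tktl1 (1.03, SE 0.19, adjusted p = 0.00202), Tex11, Taf7l (0.95) and Usp26 (0.59), all expressed in germ cells, rose. Hprt (0.21) was called higher, but not without 8 dpp replicate 3 or 12 dpp replicate 3, 4 or 5 (adjusted p up to 0.0834). The housekeeping genes Rpl39 (-0.87, SE 0.13, adjusted p = 0.000643), Rbmx (-0.78) and Uba1 (-0.26) fell. Eif2s3x (-0.28), Pdha1 (-0.31) and Ube2a (-0.36) were called lower, and each lost its call without 8 dpp replicate 3 or 12 dpp replicate 1, 3 or 5 (adjusted p up to 0.0787), which left 3. Pdha1 was also lost without 8 dpp replicate 4, and Ube2a without 8 dpp replicate 2 or 4 or 12 dpp replicate 2. Of the 7 tested autosomal retrogenes that stand in for X-linked genes when the X is silenced, 2 were called higher. They were Pdha2 and Rbmxl2 (0.72), of which the second was not called without 8 dpp replicate 2, 3 or 5 or 12 dpp replicate 1, 2, 3, 4 or 5 (adjusted p up to 0.0892).

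**Figure D4:**
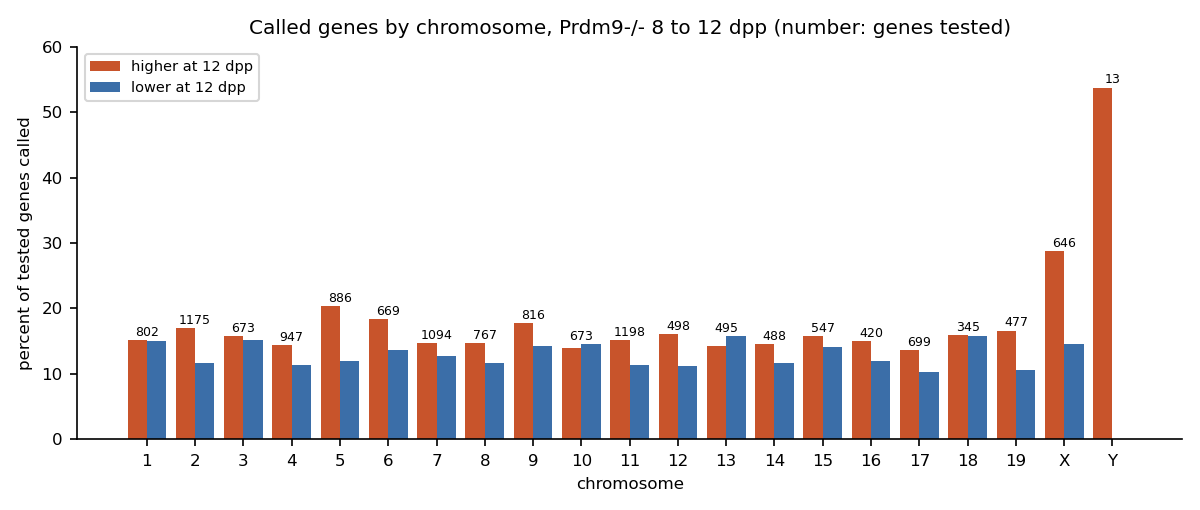
Percent of tested genes called higher or lower at 12 dpp in Prdm9-/- libraries on each chromosome, with the number of genes tested above the bars. Chromosome X reaches 28.8% higher and chromosome Y 53.8% of 13 genes, against 15.8% of autosomal genes.

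Other cell types of the testis were measured in the same libraries. The Sertoli cell list summed to between 10920 and 14842 TPM at 8 dpp and between 15416 and 16563 TPM at 12 dpp, so that the ages did not overlap in the sum. In the mean log2(TPM + 1) of the list they did overlap, with 6.45 to 6.94 at 8 dpp and 6.89 to 7.03 at 12 dpp. Over the same libraries the synaptonemal complex list went from between 284 and 718 TPM to between 793 and 1164 TPM. The part of the Sertoli cell level in the other results was not tested. Of 29 Sertoli genes 11 rose and 5 were called lower (median 0.19), or 11 and 4 without 12 dpp replicate 5. Gata1 had 22.6, 21.7, 15.4, 7.43 and 29.8 TPM at 8 dpp and 75.2, 61.7, 84.4, 70.3 and 68.4 TPM at 12 dpp and rose by 1.96 (SE 0.27, adjusted p = 0.000401) with no overlap. Cst9 (0.83), Nr0b1 (1.17) and Amhr2 (0.81) rose with Rhox5 and Tsx. Amh, the hormone of the immature cell, had 375, 676, 721, 629.6 and 448 TPM at 8 dpp and 254, 233, 258, 351 and 309 TPM at 12 dpp. Every 12 dpp library was below 8 dpp, and it fell by 0.99 (SE 0.18, adjusted p = 0.0017). Ptgds, Hsd17b1 (-2.37) and Gdnf (-1.32, SE 0.20, adjusted p = 0.000597), the factor that keeps stem cells, fell too. Gja1 (-0.61) was called lower, but not without 8 dpp replicate 2, 3, 4 or 5 or 12 dpp replicate 1, 3 or 5 (adjusted p up to 0.0834). The identity genes Sox9 (-0.20) and Wt1 (0.21) and the receptor gene Fshr (-0.19) were not called. Without 8 dpp replicate 1, 10 fell.

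Interstitial and peritubular cells, which the washes were to remove, were still measured. All 9 fibroblast genes tested fell (median -0.86), and 7 without 12 dpp replicate 5. Their sum was 1694 to 2724 TPM at 8 dpp and 898 to 1699 TPM at 12 dpp. Col3a1 had 490.3, 348, 592, 449 and 376 TPM at 8 dpp and 203, 311, 160.5, 212 and 155 TPM at 12 dpp and fell by 1.13 (SE 0.19, adjusted p = 0.00105) with no overlap. Lum (-1.34), Tcf21 (-0.90), Col1a1 (-1.08), Mfap4 (-0.67) and Fbln5 (-0.55) fell. Of 11 myoid genes 4 were called lower (median -0.31), but 1 without 8 dpp replicate 3 or 12 dpp replicate 5 and 2 without 12 dpp replicate 2 or 4. Tagln, of smooth muscle, fell by 0.68 (SE 0.10, adjusted p = 0.000633). Of 13 Leydig cell genes 3 were called higher and 2 fell. Hsd3b6, of the adult cell, rose by 2.44, with 0.11 to 0.43 TPM at 8 dpp and 1.04 to 11.4 TPM at 12 dpp, so that it passes the filter only through 12 dpp. Scarb1 rose (0.32). Without 12 dpp replicate 5 or 4, 2 were called higher, and without 12 dpp replicate 1, 2 or 3 only 1. Hsd17b3 and Akr1c14 (-1.25) fell and Cyp11a1 (-0.42), Star (-0.13) and Insl3 (-0.34) were not called. From which cell type the Hsd17b3 RNA came cannot be told from these libraries. Of 10 endothelial genes 1 was called lower, and 0 without 8 dpp replicate 3 or 4 or 12 dpp replicate 3, 4 or 5. Of 11 macrophage genes Mrc1 rose (0.90, SE 0.21, adjusted p = 0.00735), and 2 rose without 8 dpp replicate 3 or 12 dpp replicate 4. Of 5 red cell genes 1 was called lower, 3 without 12 dpp replicate 2 and 0 without any other library but 8 dpp replicate 2. Of 12 mitochondrial messengers 4 were called higher, 0 with median-ratio scaling, 10 without 8 dpp replicate 4, 2 without 8 dpp replicate 1, 1 without replicate 2 of either age and 0 without replicate 3 or 5 of either age or 12 dpp replicate 1. Of 15 genes that respond to tissue dissociation 8 fell and 1 was called higher (median -0.46), and 7 and 0 without 12 dpp replicate 5. The 1 higher was also lost without 8 dpp replicate 2 or 4 or 12 dpp replicate 1, 2 or 4. Dnajb1 (-0.56, SE 0.080, adjusted p = 0.000485), Ier3 (-1.16), Jund (-0.58), Fosb (-0.73), Nr4a1 (-0.76) and Hspa1b (-0.74), whose reads can be shared with a near-identical copy, fell. The part of these cells and of handling in the germ cell results was not tested.

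The same step in animals with PRDM9 was fitted together with this one, in 20 libraries and 19018 rows. In this fit 3158 rows rose (16.6%) and 2329 fell (12.2%) without PRDM9, and 3654 rose (19.2%) and 2288 fell (12.0%) with it. With median-ratio scaling the second pair was 2812 and 3065. Rows called in both numbered 4372, each in the same direction with and without PRDM9, which was 79.7% of the rows called without PRDM9 and 73.6% of those called with it. The difference between the steps was called in 0 rows (0.00%), with a smallest adjusted p of 1. At an unadjusted p under 0.05 there were 300 rows, against 951 for p-values spread evenly. This fit leaves out that, by the numbers read as litters, the libraries are littermates across genotypes. With litter as a random effect there were 603 such rows and again 0 called. Rows called in both steps share those litters too. Most non-mutants were wild-type at 8 dpp and heterozygous at 12 dpp, so in their step age and the mix of genotypes change together. With heterozygotes as the only non-mutants the difference was again called in 0 rows. The median SE of the difference was 0.22 on the log2 scale. A row that misses the threshold is not shown to take the same step.

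Among rows with a gene symbol, Prdm9 itself had the third smallest p of the difference, with a step of 0.26 without and 1.72 with a working allele (difference -1.46, SE 0.41, unadjusted p = 0.00192, adjusted p = 1). Other rows at that end were the antisense row 5430402O13Rik (1.04 against -0.14, unadjusted p = 0.000403), which in Prdm9-/- was over 1 TPM at 12 dpp alone and whose reads cannot be told from those of the gene it overlaps, Limch1 (0.52 against -0.076) and Hook3 (-0.19 against 0.41). The adjusted p of these was 1 too. Side by side, Stra8 took a step of 1.40 without and 1.31 with PRDM9, Gm4969 2.90 and 2.66, Spo11 2.35 and 2.16, Dmc1 2.33 and 2.30, Sycp3 1.92 and 1.97, and Tex15 1.40 and 1.86. For lists, the synaptonemal complex had medians of 1.31 and 1.63, with 11 and 12 of 13 higher. Double-strand break genes had 1.01 and 1.47, with 11 of 14 higher in both, and recombinases 0.33 and 0.39, with 15 and 21 of 36 higher. Asynapsis and ATR genes had 0.24 and 0.41, with 10 and 16 of 24. The Sertoli list had 0.19 and 0.035, and the macrophage list 0.30 and 0.64 with 2 and 7 of 13. These pairs are given as values, since no member of any list was called for the difference.

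**Figure D5:**
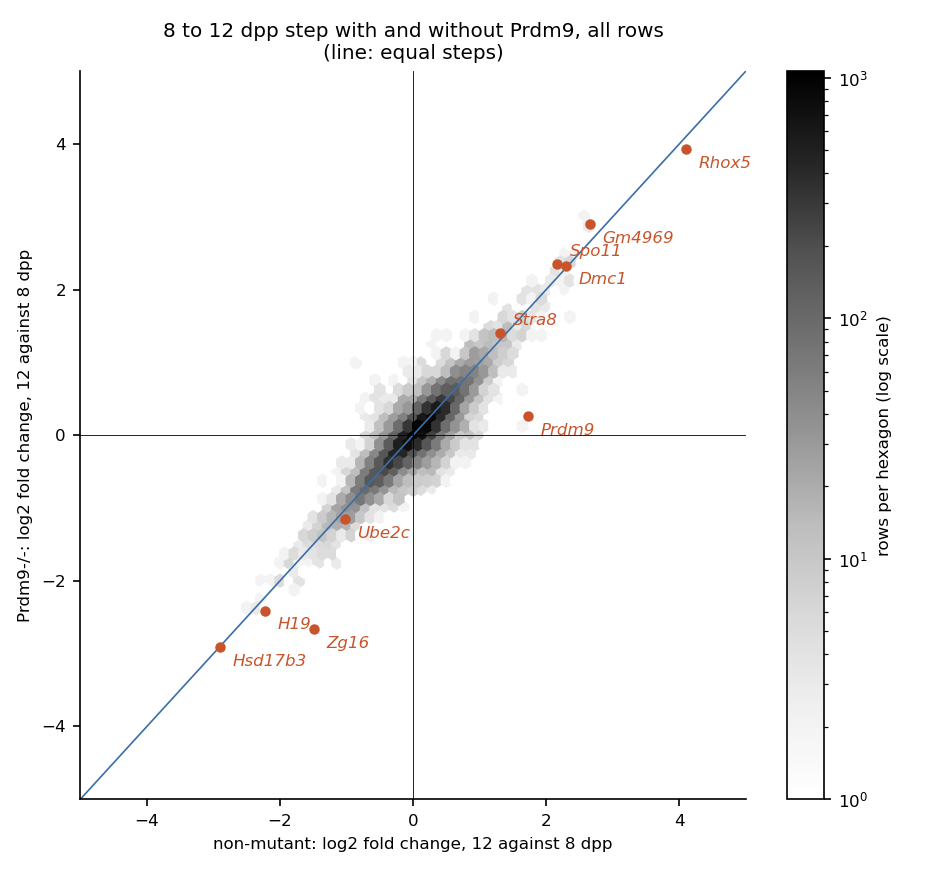
The 8 to 12 dpp step of every row without PRDM9 (vertical) against the step with it (horizontal), both as log2 fold changes of TPM + 1; the darker a hexagon, the more rows, on a log scale, and the line marks equal steps. Rhox5, Gm4969, Spo11, Dmc1, Stra8, H19 and Hsd17b3 lie near the line and Prdm9 lies to the right of it (0.26 against 1.72).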

How the data were processed

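Values are TPM as deposited by the authors in 1 table, estimated with RSEM 1.2.8 and Bowtie 1.0.0 per the submitters' processing notes; the build and strand setting are not given in the sources used here. Read depth is unknown, so no counting interval is given. The table is held in part: its 65534 rows add up to 3.23% to 3.86% less than the full TPM of a Prdm9-/- library. Names and positions come from the GRCm38 annotation (37709 Ensembl rows matched, 1197 did not). Groups follow the titles, and litters a number in the column names of the file header that was read as the litter. Replicate numbers were not taken to pair the ages, since each library is of another male and no number read as a litter held both ages. In 2 of 5 pairs of the same replicate number the deviations correlated above 0.1.

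Rows over 1 TPM in at least 5 of the libraries fitted were tested on log2(TPM + 1) with limma 3.58.1 (variance trend on, R 4.3.3), with Benjamini-Hochberg adjustment over all rows. The step in Prdm9-/- was fitted on its 10 libraries, and the difference from non-mutants on 20. On simulated data of the 8 to 12 dpp step with 17599 rows, the fit recovered 82 of 100 rows changed by 1 and 97 of 100 changed by 2 on the log2 scale, with 13 of 192 calls false. The changes were upward only, with independent normal noise, in rows with a mean log2(TPM + 1) above 2 at 8 dpp. Recovery in lower rows was not simulated. Far fewer rows changed than the 26.0% called in the data, which went both ways. Genes named are Prdm9, the 15 that rose and 15 that fell most among called, non-overlapping genes of at least 1 TPM on average, and up to 6 called members of each list in each direction with uncalled members as values. A few genes that this rule names are not reported here. A member of a list named beyond these, and all groups in the other observations, were chosen after their values were seen. The members and lists were chosen with earlier results of these data known, so counts over them are a description. Motifs were searched on both strands of RefSeq promoters. Alternatives were another pseudocount, filter, scaling, library weights, model and threshold, and each library left out.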

Additional observations from a re-analysis of the deposited data

Results flagged for a closer look

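In groups of 5 libraries, 1 library can stand apart from the other 4 by more than a gap that chance gives in about 1 of 20 groups. Over the 267 genes named and both ages, 534 groups were checked and 42 held such a library, where 27 would be expected by chance. Of these, 19 were in 12 dpp replicate 2, the library lowest of its age in most meiotic lists.

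Among genes of germ cells it was lowest in Ccdc155 (5.39 TPM), Clgn (6.36 TPM), Ddx4 (123 TPM), Majin (3.26 TPM), Msh5 (8.57 TPM), Prss50 (46.3 TPM), Rhox13 (26.5 TPM), Tex101 (157 TPM), Tex11 (57.0 TPM), Tktl1 (43.6 TPM), Ythdc2 (15.9 TPM) and Zfy1 (1.27 TPM). Among genes of replication, division and stress it was lowest in Esco2 (37.6 TPM), Pcna (166 TPM), Rrm2 (27.4 TPM), Top2a (114 TPM) and Hspa1b (37.8 TPM). It was highest in the retinoic acid degrading enzyme gene Cyp26b1 (198 TPM) and in Trp53inp1 (36.1 TPM).

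At 8 dpp, replicate 1 stood highest in Brdt (13.6 TPM), Gja6 (1.87 TPM) and Zfy2 (1.13 TPM) and lowest in the Sertoli cell genes Fshr (15.7 TPM) and Gja1 (176 TPM), in Hprt (86.8 TPM) and in Tet1 (3.71 TPM). Replicate 3 was highest in Dlk1 (672 TPM) and lowest in Hsd3b6 (0.11 TPM) and Rad51ap2 (0.38 TPM), and replicate 4 was highest in Cfap43 (88.8 TPM), Id4 (21.9 TPM) and Stag2 (79.2 TPM) and lowest in Amhr2 (238 TPM). At 12 dpp, replicate 5 was highest in Prdm9 (19.2 TPM), Atm (27.9 TPM) and Sox9 (87.9 TPM). Replicate 1 was highest in Birc5 (42.4 TPM) and Ehmt1 (59.0 TPM), replicate 4 in Rbmx (36.3 TPM) and Smc1a (49.1 TPM), and replicate 3 in Zg16 (0.30 TPM, with the others listed at 0) and lowest in Mlh3 (8.36 TPM).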

How the results depend on the processing

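The 4580 rows called in the Prdm9-/- step ranged from 3351 (without 12 dpp replicate 5) to 5513 (without 8 dpp replicate 1) with single libraries left out, and from 3550 with no filter to 6510 with array weights over the other settings. An adjusted p under 0.01 left 2295, and a change above 1 on the log2 scale 804. With the replicate number as a block 4202 were called, and 2 of the 5 numbers correlated best with their own pair. The 0 rows called by limma for the difference of steps were 0 in every setting, with 243 to 1082 at an unadjusted p under 0.05. The 5942 rows of the non-mutant step ranged from 4501 to 6398 with single libraries left out. They were 2728 with heterozygotes as the only non-mutants, where fewer libraries are fitted and the mix of genotypes no longer changes with age. Median-ratio scaling gave 2812 higher and 3065 lower there, and quantile normalization 2966 and 2851. No paired analysis was possible by replicate number for the difference of steps and the non-mutant step because wild-type and heterozygous animals are numbered separately. Litter, which pairs the genotypes within an age, gave as a random effect 0 rows for the difference (603 at an unadjusted p under 0.05), 5691 for the non-mutant step and, chosen after seeing the data, 5254 for the Prdm9-/- step.

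Of 202 called genes named, 167 were called at an adjusted p under 0.05 in every one of up to 21 alternative fits. The stricter thresholds given above are not among these. The 26 lost with a library left out are given with those libraries in the report or counted there, apart from Ddx4, which was not called without 8 of the 10 libraries. With no filter, Dazl (adjusted p = 0.0558), Fkbp6 (0.0503), Ovol1 (0.0503), Stra8 (0.0558), Tdrkh (0.0527) and Hspa1b (0.073) were not called by limma. Nor were Aldh1a1 with quantile normalization (0.0698), Zcwpw2 with the replicate block (0.0514) or litter (0.0573), and Ybx3 and Hspa1b in the fit of 30 libraries (0.108 and 0.145). H3f3a turned to 0.082 with quantile normalization. Among genes that were not called, the sign turned in Prdm9 (-0.005 to 0.36 with single libraries left out, the lowest without 12 dpp replicate 5), Zbtb16 (-0.046 without 8 dpp replicate 4, up to 0.306 without replicate 1), Id4 (0.166 with array weights, -0.141 to 0.162 without single libraries, and 0.091 without 8 dpp replicate 4), Dnmt1 (-0.017 with median-ratio scaling, -0.021 to 0.139 without single libraries, and -0.001 without 12 dpp replicate 1) and Top2a (-0.038 with median-ratio scaling, -0.022 to 0.119 without single libraries). The cause of these changes was not tested. The depth of these libraries is unknown, so low rows carry an error that cannot be given, and 5 libraries an age limit the precision.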

Other observations

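Further gene families, some of whose members the lists also hold, were counted in the same step. They were chosen after their values were seen, so they are described with no test of the group. Ribosomal protein genes fell in 63 of 81 tested cases and rose in none, with a median of -0.42, and their sum went from between 85350.3 and 100125 TPM to between 66384 and 73562 TPM, with no overlap. Rps4x (-1.04), Rps9 (-0.67) and Rpl24 (-0.58) are examples. The count was 60 without 12 dpp replicate 5, 67 with median-ratio scaling and 36 with quantile normalization, which gave a median of -0.20. Reads of these genes can be shared with their many pseudogenes. In non-mutants 65 fell, with a median of -0.42.

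Imprinted genes, several of which set fetal growth, fell in 20 of 31 tested cases, and 1 rose (median -0.69). Beside H19 and Nnat, Plagl1 (-1.68), Dlk1 (-1.56), Mest (-1.42), Igf2 (-1.20) and Ndn (-0.90) fell. Their sum was 3879 to 4754 TPM at 8 dpp and 2630.2 to 3215 TPM at 12 dpp, and in non-mutants 19 fell (median -0.65). Collagen genes fell in 25 of 37 cases (median -0.74), among them Col6a2 (-1.37) and the basement membrane gene Col4a1 (-0.87). They include Col1a1 and Col3a1 of the fibroblast list, which fell in 9 of 9 cases with a sum of 1694 to 2724 TPM at 8 dpp and 898 to 1699 TPM at 12 dpp, and the part of fibroblasts in the collagen values was not tested. Of 16 Mage family genes, many of them X-linked, 9 rose and 1 fell (median 0.62), among them Magea4 (2.17), Mageb16 (1.95) and Magea6 (1.41), and copies of this family can share reads. Magea4 was over 1 TPM at 8 dpp in replicate 1 alone, so it passed the filter mainly through 12 dpp. Genes of cell junctions went 6 up and 2 down of 15, or 5 and 1 without 12 dpp replicate 5, with Cldn11 (1.21), which seals the blood-testis barrier, and Espn (0.94) rising. With single libraries left out 1 to 3 were lower, and 1 of them, Gja1 (-0.61), lost its call without 8 dpp replicate 2, 3, 4 or 5 or 12 dpp replicate 1, 3 or 5 (adjusted p up to 0.0834).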
